A study of Mus musculus with 6 samples.

Results

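The Ly6 genes encode small surface proteins of the Ly6/uPAR family, most of them held in the outer membrane by a glycosylphosphatidylinositol (GPI) anchor. In mice many of them lie side by side in one chromosomal cluster and serve as markers of blood cell types. Ly6g, in that cluster, encodes the neutrophil protein by which the cells studied here were sorted. Of 6 member genes sought (Ly6a, Ly6c1, Ly6c2, Ly6d, Ly6e and Ly6i), 3 had a probe set that the platform annotation assigns to 1 gene symbol, out of 18193 such genes in the series. They were Ly6d and Ly6i with 1 probe set each and Ly6e with 2, so the members are 4 probe sets. The probe sets 1453304_s_at and 1439773_at measured Ly6e, 1416930_at measured Ly6d and 1425890_at measured Ly6i. Ly6c2 and Ly6c1 were listed together on 1 probe set, which falls outside the rule. In that annotation 0 probe sets named Ly6a and 0 named the sort marker Ly6g, so these genes were not analysed here.

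The samples were dendritic cells from C57BL/6 mouse bone marrow cultured in GM-CSF (a growth factor) at 10 ng/ml and sorted on day 6, with 1 Affymetrix mouse array per sample. There were 3 samples of CD11c+ MHC II+ Ly6G+ cells (Ly6G+ DC) and 3 of CD11c+ MHC II+ Ly6G- cells (Ly6G- DC), and both groups came from the same cultures. The labels do not say which samples share a culture or an animal, so each p-value reflects only how far these samples scatter, and that scatter may be technical. The comparison asks how the Ly6 genes that were not used for sorting differ between dendritic cells with and without the Ly6G protein on their surface.

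The arrays themselves differed in ways that bear on every value. The control transcripts spiked in before hybridization had geometric mean signals of 1648, 6688 and 2039 on Ly6G+ DC 1, 2 and 3, against 1529, 12321 and 12842 on Ly6G- DC 1, 2 and 3. Ly6G+ DC 2, Ly6G- DC 2 and Ly6G- DC 3 therefore formed a high side and the other 3 arrays a low side. Signal at the 3' end of Actb relative to its 5' end, a measure of how complete the labelled RNA is, was 3.98 to 6.85 on the high side and 1.17 to 1.49 on the low side. The high side holds 1 Ly6G+ array and 2 Ly6G- arrays, so side and group are partly mixed, and each member is also given within each side, and each list with the side as a block. The sort genes were bright on all arrays: Itgax, which encodes CD11c, had signals of 2728 to 7884 in Ly6G+ DC, against 5610 to 9630 in Ly6G- DC. H2-Aa, of MHC class II, had 14475 to 62040 in Ly6G+ DC, against 22344 to 120546 in Ly6G- DC.

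Ly6i had the largest difference of the member probe sets. Its protein is a GPI-anchored relative of Ly6c carried by mouse bone marrow cells. The Ly6i signal was 1331, 316 and 1663 on Ly6G+ DC 1, 2 and 3, against 429, 35.3 and 69.5 on Ly6G- DC 1, 2 and 3. The groups overlapped at one point, where Ly6G- DC 1 lay above Ly6G+ DC 2, and Ly6G- DC 2 lay below its array's 40th percentile. The mean Ly6i signal was 1103 ± 702 in Ly6G+ DC, against 178 ± 218 in Ly6G- DC (SD over 3 arrays each). On the log2(signal + 16) scale the fold change was 2.86 ± 0.80 (SE), or 7.28-fold, with a 95% interval of 1.09 to 4.63. Over all 28254 probe sets tested, limma's adjusted p with the group alone was 0.836 (unadjusted p = 0.00476). The difference thus did not pass the threshold of 0.05. With the replicate number as a block limma's adjusted p was 0.0459, in a fit that called 0.0672% of all probe sets tested. Whether the numbers pair the samples is not settled. With the group alone, 19 probe sets (0.0672%), Ly6i among them, had a log2 fold change at least as large as that of Ly6i. In bulk samples, fewer cells of a type and less RNA per cell cannot be told apart.

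Within each side of the hybridization controls, Ly6i was higher in all Ly6G+ DC samples than in any of the Ly6G- DC samples. On the low side its signals were 1331 and 1663 in Ly6G+ DC, against 429 in Ly6G- DC, a log2 difference of 1.76. On the high side the signal was 316 on the Ly6G+ array, against 35.3 and 69.5 on the Ly6G- arrays, a log2 difference of 2.33. Such separation within both sides was seen for 12.3% of all probe sets tested, so it is not rare by itself. With the side as a block, limma gave 2.04 ± 0.33 (SE) and an adjusted p of 0.150, with 0% of all probe sets called in that fit. The side moved Ly6i about as much as the group did: the low side exceeded the high side by 2.18 log2 units within Ly6G+ DC and by 2.75 within Ly6G- DC. The part of RNA completeness in this was not tested.

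**Figure D1:**
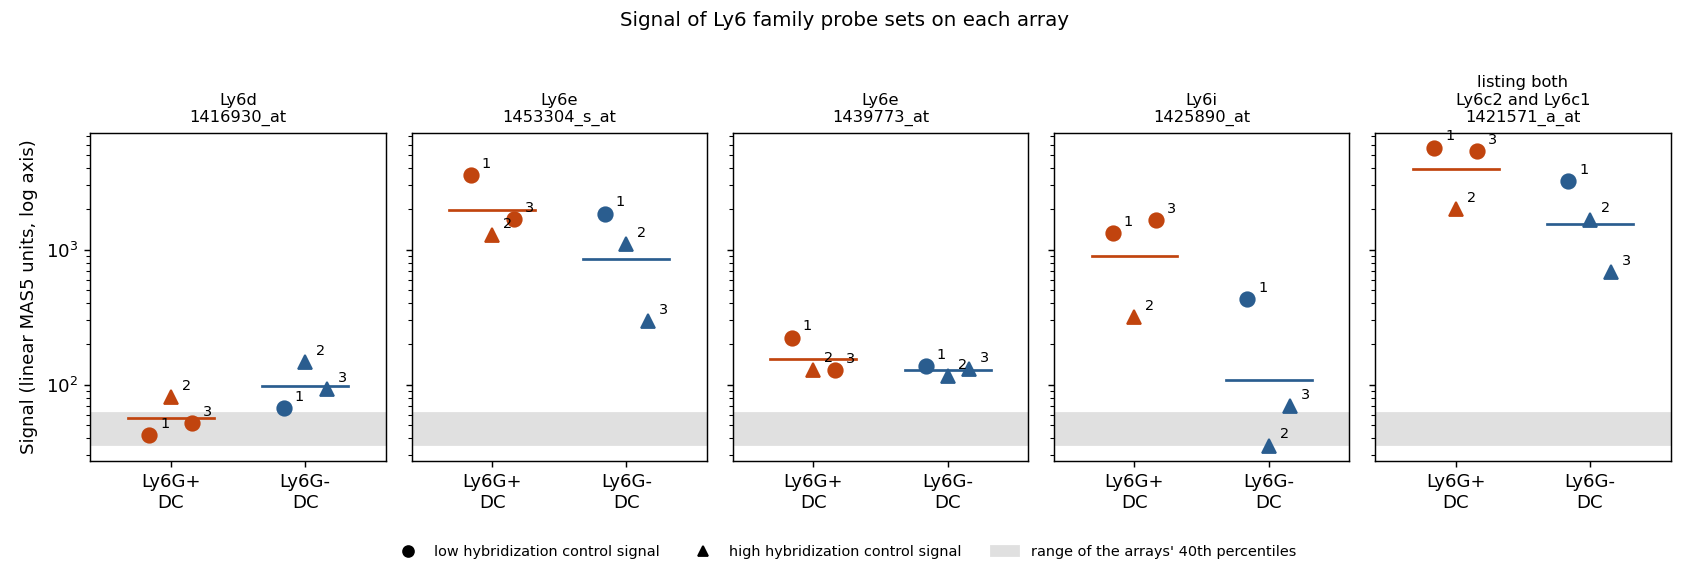
Signal (linear MAS5 units, log axis) of the 4 member probe sets and of the probe set that lists both Ly6c2 and Ly6c1, on each of 3 Ly6G+ DC and 3 Ly6G- DC arrays, with replicate numbers beside the points. Circles are arrays with low and triangles arrays with high hybridization control signal, lines are means on the log2(signal + 16) scale, and the grey band spans the arrays' 40th percentiles. Within each symbol, Ly6i lies higher in Ly6G+ DC, from 316 against 35.3 and 69.5 among triangles to 1331 and 1663 against 429 among circles.

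The rank of a probe set within its own array does not depend on how arrays were scaled. Ly6i lay at the 94.0, 79.1 and 94.9 percentile of all probe sets on Ly6G+ DC 1, 2 and 3, against 83.4, 30.3 and 42.9 on Ly6G- DC 1, 2 and 3. It was thus among the brighter probe sets on all Ly6G+ arrays and below the middle on 2 of the 3 Ly6G- arrays. Both of the latter arrays lie on the high side. Ly6G- DC 1, on the low side, ranked at 83.4, above the 79.1 of Ly6G+ DC 2 on the high side. Ranks therefore do not remove the side.

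Ly6e, an interferon-induced surface protein first described on mouse thymocytes, gave different pictures on its 2 probe sets. Signals of 1453304_s_at were 3585, 1276 and 1679 on Ly6G+ DC 1, 2 and 3, against 1849, 1107 and 298 on Ly6G- DC 1, 2 and 3. The groups overlapped, and Ly6G- DC 3 lay far under the other arrays. The mean Ly6e signal on it was 2180 ± 1233 in Ly6G+ DC, against 1084 ± 776 in Ly6G- DC (SD over 3 arrays each). Its log2 fold change was 1.20 ± 0.61 (SE; 95% interval -0.17 to 2.56), with a limma adjusted p of 0.836. Without Ly6G- DC 3 the log2 fold change was 0.46 ± 0.49 (SE), and without Ly6G+ DC 1 it was 0.77 ± 0.64. Within the low side it was 0.41, with the groups overlapping, and within the high side 1.12.

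Signals of the other Ly6e probe set, 1439773_at, were 223, 130 and 129 on Ly6G+ DC 1, 2 and 3, against 137, 116 and 130 on Ly6G- DC 1, 2 and 3. Apart from Ly6G+ DC 1, all arrays lay between 116 and 137. The log2 fold change was 0.26 ± 0.36 (SE; 95% interval -0.54 to 1.05), with a limma adjusted p of 0.906, and it was 0.02 ± 0.41 without Ly6G+ DC 1. Within the low side it was 0.28 and within the high side 0.07. Affymetrix gives the suffix _s_at to probe sets whose probes match transcripts of more than one gene or family member, so 1453304_s_at may read transcripts besides Ly6e. Which of the 2 probe sets follows Ly6e more closely was not tested.

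Ly6d, which marks mouse lymphoid progenitors committed to the B cell lineage, ran the other way and was dim. Its signals were 42.4, 80.5 and 51.8 on Ly6G+ DC 1, 2 and 3, against 67.0, 148 and 92.4 on Ly6G- DC 1, 2 and 3. The groups overlapped through Ly6G+ DC 2, and Ly6G+ DC 1 lay under its array's 40th percentile of 46.6. The mean Ly6d signal was 58.2 ± 19.8 in Ly6G+ DC, against 102 ± 41.2 in Ly6G- DC (SD over 3 arrays each). The log2 fold change was -0.65 ± 0.46 (SE; 95% interval -1.67 to 0.37), with a limma adjusted p of 0.848. It was -0.40 within the low side and -0.46 within the high side, each without overlap, as was so for 15.4% of all probe sets tested in this direction. In both groups Ly6d was dimmer on the low side, by 0.62 log2 units in Ly6G+ DC and by 0.68 in Ly6G- DC, opposite to Ly6i.

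Counted together, 0 of 4 member probe sets passed limma's adjusted threshold, as did 0% of all 28254 tested. At an unadjusted p under 0.05 there was 1, Ly6i, where 5.62% of all probe sets reached that level. Groups did not overlap for 0 of 4 members, against 11.7% of all probe sets. The log2 fold change was positive for 3 of the 4, with a median of 0.73, against -0.06 over all probe sets tested. All 4 members passed the filter on dim probe sets. Ly6i and Ly6d showed opposite patterns over the arrays, with a Pearson's r of -0.95 between their log2 signals over 6 arrays, while Ly6i and Ly6e had 0.73. These correlations are descriptions, and their points share each array's scaling and side. Whether the fold changes of the members differ from each other was not tested.

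**Figure D2:**
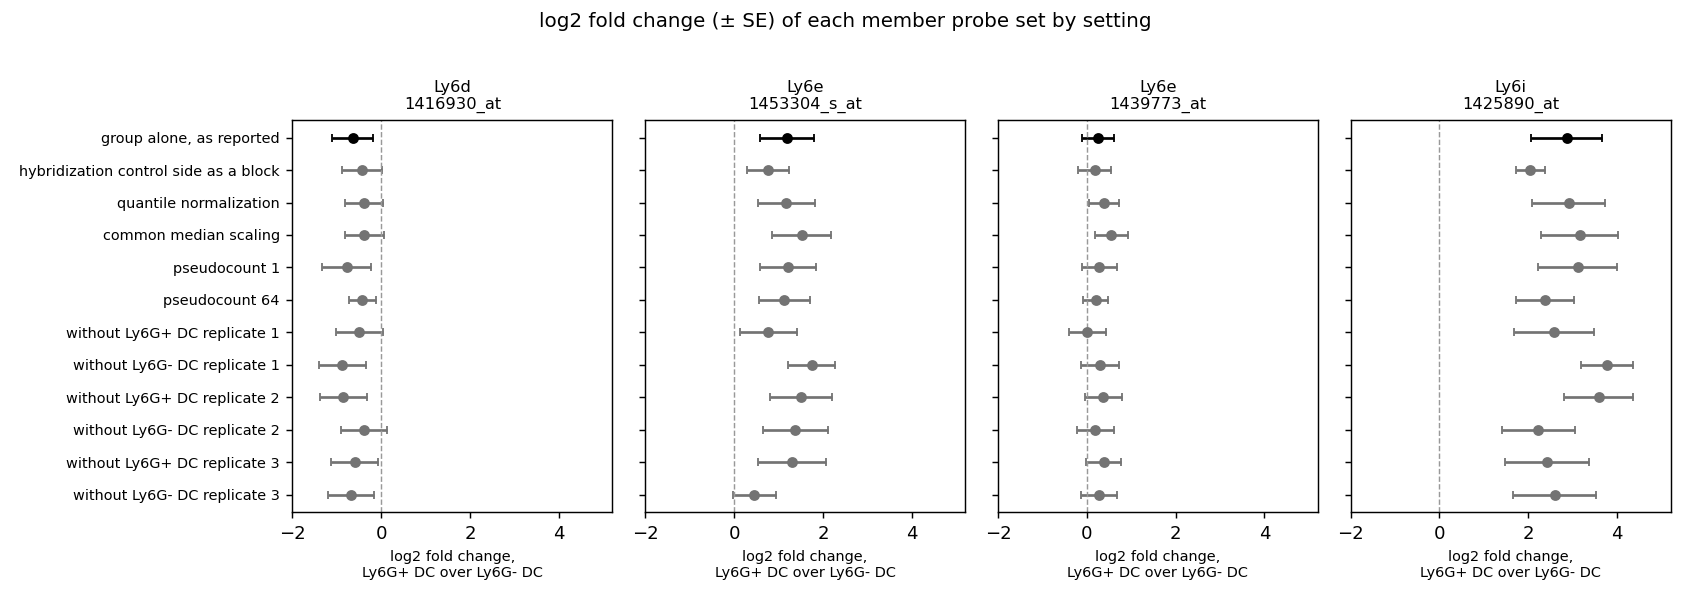
log2 fold change (x axis, Ly6G+ DC over Ly6G- DC, with SE) of each member probe set under the reported fit, 5 other settings and the 6 fits that leave out 1 array each, 1 per line. Over these fits Ly6i stays between 2.04 and 3.78, Ly6d stays below 0, and Ly6e on 1453304_s_at moves between 0.46 and 1.75.

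The probe set 1421571_a_at lists both Ly6c2 and Ly6c1, whose proteins together carry the Ly6C marker of inflammatory monocytes, and its signal cannot be assigned to either gene. It was 5703, 2006 and 5389 on Ly6G+ DC 1, 2 and 3, against 3207, 1670 and 678 on Ly6G- DC 1, 2 and 3. The groups overlapped, with Ly6G- DC 1 above Ly6G+ DC 2, as for Ly6i. The log2 fold change was 1.35 ± 0.57 (SE), with a limma adjusted p of 0.836. Within the low side it was 0.79 and within the high side 0.90, without overlap within either. That held for 12.3% of all probe sets tested in this direction.

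In the RefSeq gene table of assembly GRCm38.p6, used for gene order alone, Ly6e and Ly6i are direct neighbours and Ly6d lies 7 genes away from Ly6e. From Ly6d to Ly6h the table holds 22 protein-coding genes, of which 11 had a probe set with 1 symbol. Of these 11 genes, 7 had a probe set that passed the filter: Ly6d, Ly6e, Ly6i, Ly6g6g, Ly6k, Ly6m and Cyp11b2. Beyond the members, Ly6k, Ly6m and Ly6g6g had log2 fold changes of 0.43 ± 0.79, 0.37 ± 0.73 and -0.09 ± 0.55 (SE). Their groups overlapped, and the Ly6k signal of 1 probe set alone spanned 3.38 to 156 within Ly6G- DC. Cyp11b2, an aldosterone synthesis enzyme whose gene lies among the Ly6 genes, was named after its value was seen and had signals of 73.6, 48.5 and 50.0 on Ly6G+ DC 1, 2 and 3, against 119, 134 and 129 on Ly6G- DC 1, 2 and 3. Its groups did not overlap, as for 11.7% of all probe sets tested. Its log2 fold change was -0.98 ± 0.39 (SE) with a limma adjusted p of 0.836. Cyp11b1, Ly6f, Ly6g2 and Ly6h did not pass the filter, as their signals exceeded the array's 40th percentile on 1, 1, 2 and 1 of the 6 arrays.

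**Figure D3:**
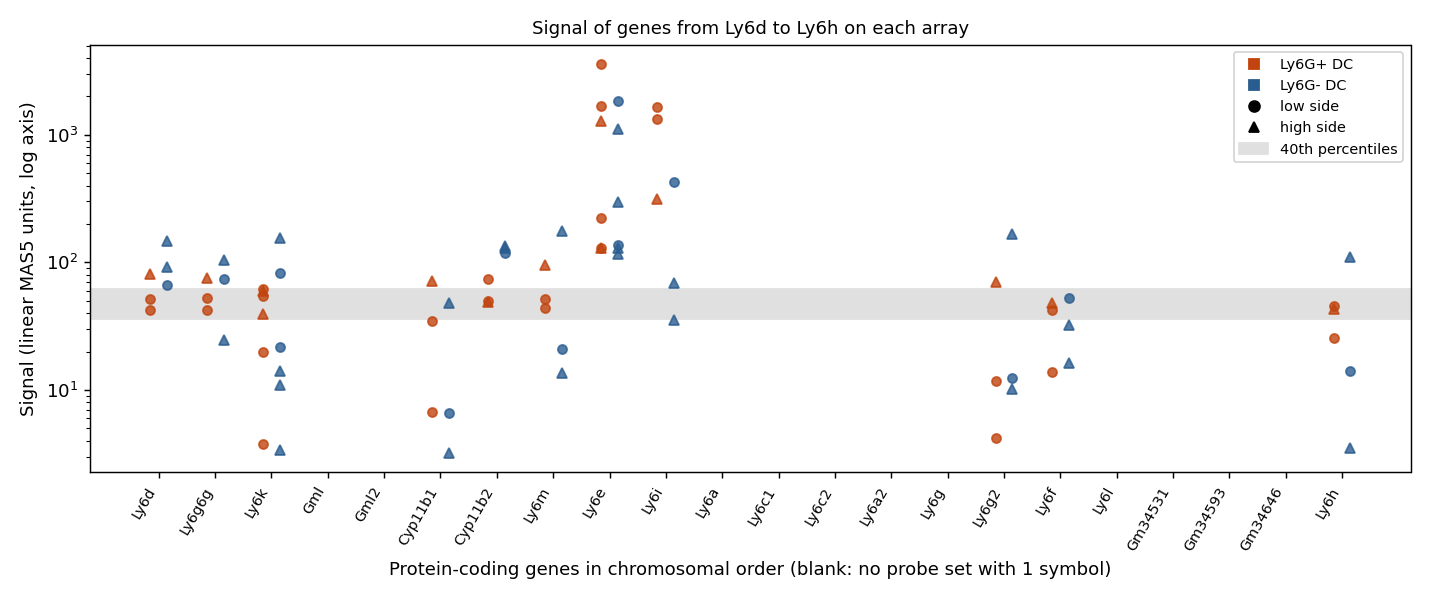
Signal (linear MAS5 units, log axis) on each array for the protein-coding genes from Ly6d to Ly6h in chromosomal order, with Ly6G+ DC left of Ly6G- DC, circles for arrays with low and triangles for arrays with high hybridization control signal, and the 40th percentiles as a grey band. Of 22 genes, 11 have a probe set with 1 symbol, and 7 of these have one that passed the filter.

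Other genes of the family and of processes tied to it were read from the same fit. Of 37 other Ly6/uPAR superfamily genes listed, 13 could be tested, and 0 passed in either direction. Their median log2 fold change was -0.27, with 4 positive values, and with the side as a block -0.15, with 5. Plaur, the urokinase receptor and their brightest gene, had signals of 2888, 1360 and 1703 on Ly6G+ DC 1, 2 and 3, against 1898, 1196 and 692 on Ly6G- DC 1, 2 and 3. Its log2 fold change was 0.69 ± 0.42 and that of Lynx1, which binds nicotinic acetylcholine receptors, was -0.50 ± 0.36 (SE). Cd177, a neutrophil surface protein named here after its value was seen, was the family gene with the largest difference. Cd177 had 298, 165 and 396 on Ly6G+ DC 1, 2 and 3, against 7.88, 42.8 and 2.70 on Ly6G- DC 1, 2 and 3, and each of the Ly6G- values lay below its array's 40th percentile. Cd177 thus passed the filter only through the Ly6G+ arrays, where it was high. That favours the absence of overlap between its groups and bears on the limma adjusted p of 0.276, so neither is support for a difference.

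Of 27 tested genes that make and attach the GPI anchor, 0 passed, 18 were positive and 9 negative, and the median log2 fold change was 0.12 (0.09 with the side as a block). Their brightest members Pgap2 and Pigq, a remodelling and a synthesis factor of the anchor, had -0.55 ± 0.41 and -0.05 ± 0.31 (SE). Their summed signal was 11648 to 13882 in Ly6G+ DC and 11933 to 14323 in Ly6G- DC.

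Several Ly6 genes are induced by interferon, and 33 of 40 listed interferon-stimulated genes could be tested. Of these 0 passed, 16 were positive and 17 negative, and the median log2 fold change was -0.02 (0.06 with the side as a block). The brightest were Gbp2, a guanylate-binding protein, with -0.39 ± 0.31 (SE), and Ifi35 with -0.59 ± 0.40. The mean of the list per array, centred on the 6 arrays, was -0.01 ± 0.14 in Ly6G+ DC, against 0.01 ± 0.10 in Ly6G- DC (SD over 3 arrays each).

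Markers of the cell types that Ly6 genes can mark were read beside Ly6i. Of 19 neutrophil markers tested, 0 passed the adjusted threshold, 18 were positive, and the groups did not overlap for 17. Over all probe sets that share was 11.7%. Among these markers, Cd177, Cxcr2 and Lrg1 passed the filter only through the Ly6G+ arrays, which favours the absence of overlap. The median log2 fold change of the 19 markers was 3.20 (3.13 with the side as a block). Their summed signal was 94490 to 129348 in Ly6G+ DC and 14141 to 33539 in Ly6G- DC. The brightest, Mmp8, a collagenase, and S100a8, a calcium-binding protein, had 0.59 ± 0.35 and 3.53 ± 0.52 (SE). Of 17 monocyte markers tested, 14 were positive, 7 were higher without overlap and 0 passed, with a median of 0.75 (0.70 with the side as a block) and summed signals of 83530 to 92023 in Ly6G+ DC and 35328 to 72461 in Ly6G- DC. Their brightest genes were Csf1r, the receptor of a macrophage growth factor, with -0.08 ± 0.45, and Chil3, a secreted chitinase-like protein, with 1.85 ± 0.45 (SE). The part of these cell types in the Ly6i and Ly6e differences was not tested.

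Dendritic cell markers lay on the other side. Of 19 tested, 18 were negative, 10 were lower without overlap and 0 passed, with a median log2 fold change of -0.74 (-0.63 with the side as a block). Over all probe sets tested, 11.7% had no overlap in either direction. H2-Aa and Cd74, both of the MHC class II pathway, had -1.30 ± 0.74 and -1.02 ± 0.54 (SE). With the side as a block they had -0.61 ± 0.25 and -0.63 ± 0.28. All high-side arrays had H2-Aa signals of at least 62040, and all low-side arrays had at most 22344. H2-Ab1 and H2-Eb1, also of MHC class II, had -0.57 ± 0.36 and -0.47 ± 0.36 (SE), each without overlap. With the side as a block these genes had -0.56 ± 0.25 and -0.42 ± 0.23. Markers of the lymphoid cells that Ly6d can mark were negative for 13 of 14 B lymphocyte and plasmacytoid genes, with a median of -0.22 and 0 passing. With the side as a block 5 of the 14 were positive and the median was -0.10. Their summed signal was 1961 to 2974 in Ly6G+ DC and 2295 to 4226 in Ly6G- DC. Among the B cell genes, Ebf1, Vpreb1 and Rag1 did not pass the filter. Tcf4, a plasmacytoid cell transcription factor, and Cd22, a B cell receptor inhibitor, had -0.42 ± 0.35 and -0.01 ± 0.40 (SE). Their part in the Ly6d difference was not tested.

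Further lists covered cells that a bone marrow culture can hold. Of 13 stem and progenitor markers, 4 were positive and 0 passed, with a median of -0.30 (-0.20, and 2 positive, with the side as a block). Cd48, an adhesion protein, and Procr, the protein C receptor, had 0.16 ± 0.41 and -0.41 ± 0.30 (SE). Of 8 T and NK lymphocyte markers, 2 were positive and 0 passed, with a median of -0.68 (-0.42 with the side as a block), and Klrd1, an NK receptor chain, and Zap70, a T cell kinase, had -0.86 ± 0.34 and -1.42 ± 0.51 (SE). Of the genes named from these lists, 4 turned sign with the side as a block, none of them called in either fit: Pigq, Csf1r, Cd48 and Cd22, with 0.09, 0.15, -0.17 and 0.17. Plaur, Lynx1, Pgap2, Gbp2, Ifi35 and Tcf4 kept their sign but shrank to 0.40, -0.32, -0.21, -0.25, -0.32 and -0.20.

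**Figure D4:**
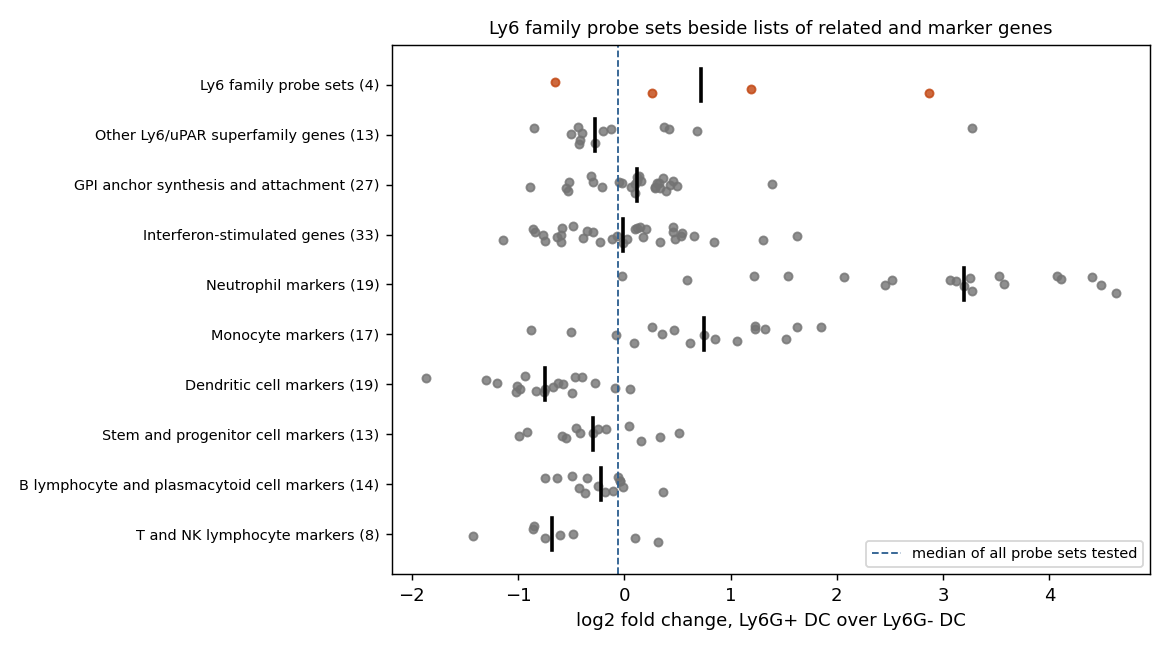
log2 fold change (x axis, Ly6G+ DC over Ly6G- DC) of the 4 member probe sets and of the tested genes of 9 lists, with the number of points in brackets, list medians as black bars and the median of all probe sets tested as a dashed line. The members run from -0.65 to 2.86, and the neutrophil list has a median of 3.20.

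The genes most like each member over the 6 arrays were taken by Pearson's r among 13262 genes. For Ly6i they were Herc4, a ubiquitin ligase, Bid, a cell death regulator of the BCL2 family, and Zfp120, a zinc finger gene, each with an r of 0.99. Their fold changes were smaller than that of Ly6i: Bid had signals of 268, 194 and 261 on Ly6G+ DC 1, 2 and 3, against 183, 117 and 123 on Ly6G- DC 1, 2 and 3. For Ly6e (1453304_s_at) they were Pirb, an inhibitory receptor, Fn1, fibronectin, and Gnaq, a G protein subunit, each with an r of 0.99. For Ly6d they were Eif5a2, a translation factor, Sp110, a nuclear body protein, and Vgll2, a transcription cofactor, with r of 0.99 each. Over so few arrays, 245 to 358 genes reached an r over 0.9 with a member, so these names are a description only.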

How the data were processed

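For 6 arrays the authors deposited linear intensities, 1 per probe set. After 2% trimming at either end all 6 had a mean of 250.0, so they had been scaled to it. Per the submitters' processing notes, Affymetrix Expression Console 2.0, MAS5 and GCOS were used. Other settings, and a genome build, are not given in the sources used here. Because MAS5 takes mismatch signal off, low signals are noisy.

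Of 45101 probe sets, 64 controls were left out of tests. The platform annotation gave 1 symbol to 34958, several to 932 and none to 9211. Signals were analysed as log2(signal + 16), which understates the fold change of dim genes. Probe sets above the array's 40th percentile on at least 3 arrays were kept, 28254 in all. The test was limma 3.58.1 under R 4.3.3 (group alone, lmFit, then eBayes with a trend on intensity), adjusted by Benjamini-Hochberg, at a threshold of 0.05. The fit was tested on simulated data with independent noise. These data had no side and no shared cultures, so that test does not cover either.

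Listed genes were represented by their brightest kept probe set. The named genes were all member probe sets, the 2 brightest tested genes of each list, and the 3 genes most correlated with each member. Cd177 and Cyp11b2 were named after seeing their values. The members, lists and side split were chosen with earlier results of these data known. The split was made at the widest gap in the hybridization controls. The number of arrays limits the precision.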

Additional observations from a re-analysis of the deposited data

How the results depend on the processing

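Each result was recomputed under 12 other settings and without each array in turn. All 4 member probe sets kept the sign of their log2 fold change wherever they were tested: Ly6d was not kept by the filter at the 60th percentile, and the fit with one probe set per gene held 1453304_s_at for Ly6e. Over the other settings Ly6i ranged from 2.04 to 3.16, and without single arrays from 2.22 to 3.78. The family median was 0.47 to 1.20 over the settings and 0.37 to 1.02 without single arrays. Scaling to a common median moved the median log2 fold change of all probe sets from -0.06 to 0.23. Relative to that median, Ly6i, 1453304_s_at, 1439773_at and Ly6d had 2.93, 1.29, 0.32 and -0.61, against 2.93, 1.26, 0.32 and -0.59 as reported. With it 1775 of 2014 probe sets at an unadjusted p under 0.05 were higher in Ly6G+ DC, with quantile normalization 912 of 1455, and as reported 778 of 1589.

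With the replicate block, which takes the shared replicate number as a pair, limma called 19 probe sets (0.0672%), all higher in Ly6G+ DC, 10 of them on the list of neutrophil markers, and 1 of the members, Ly6i (2.86 ± 0.43 SE, adjusted p = 0.0459). Its adjusted p ranged from 0.0459 to 0.879 over the settings and was lowest at 0.0527 without single arrays (without Ly6G- DC 1). Deviations from the group means correlated by 0.52, 0.26 and -0.04 between same-numbered arrays 1, 2 and 3. Arrays 1 share the low side and arrays 2 the high side, while arrays 3 lie on opposite sides. Ly6G+ DC 2 correlated best with Ly6G- DC 3 (0.32), and these also share the high side. The correlations therefore cannot separate pairing from side, and whether the numbers pair the samples is not settled. The reported fit took the group alone. Blocking on the array name gave 21 calls, 0 of them among the members. Without single arrays there were 0 or 1 calls, the 1 without Ly6G- DC 2, and 0 among the members. The cause of these changes was not tested.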
